A study of Mus musculus with 6 samples.

Results

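The genes described here encode 9 enzymes and helper proteins that turn arachidonic acid into prostaglandins and leukotrienes. They are the cyclooxygenases Ptgs1 and Ptgs2, the terminal prostanoid synthases Ptges, Ptgis and Ptgds, and the leukotriene genes Alox5, Alox5ap, Ltc4s and Lta4h. They were chosen by symbol, as 9 of the 32285 genes in the count matrices, and their counts of unique molecular identifiers (UMIs, each marking 1 captured RNA molecule) were summed per library and per cell class. Cells other than cardiomyocytes were prepared from mouse heart ventricles by enzyme digestion and filtering, sorted as live by dye, and profiled with 10x 3′ single-cell RNA sequencing. All mice were males of 8-12 weeks. Wild-type (WT) mice were C57BL/6JRj and Trpm4 knockout (KO) mice were B6.Cg-Trpm4tm1.2-PG, a line in which the gene of a calcium-activated cation channel is disrupted. In both genotypes hearts were taken 24 h after a sham operation, or 24 h or 72 h after LAD ligation, the closure of a main coronary artery, which causes a myocardial infarction.

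There are 6 groups, and a single library pooling the cells of 4 mice stands for each. No difference below therefore has a replicate check, no test was made, and all intervals are exact 95% Poisson intervals that cover counting error only. Libraries held 20995280 to 45649061 UMIs, and 32051 of 34940 deposited cells were kept. The KO 72 h library stands apart in depth, with a median of 1354 UMIs per kept cell against 3062 to 8009.5 in the other libraries. Between 3 and 14 cell barcodes were shared by any 2 libraries. Summed over all deposited cells, Trpm4 was at 8.79, 5.52 and 4.29 counts per 1000000 UMIs (CPM) in WT sham, 24 h and 72 h, and at 6.20, 3.46 and 2.57 CPM in the matching KO libraries. It was lower in KO in each pair without being absent, and since the labels do not give the deleted part of the gene, these 3′ counts check the genotype only in part. Cell classes were rebuilt by clustering without the eicosanoid genes and are named from markers, so that "neutrophil" below means neutrophil-like. The main classes were endothelial, fibroblast, monocyte/macrophage and neutrophil, each with all of its own markers (10, 10, 15 and 12) detected in every library.

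Arachidonic acid is freed from membranes by phospholipases. Cyclooxygenases convert it to prostaglandin H, the common precursor, and a terminal synthase then decides which product a cell makes: Ptges makes prostaglandin E, Ptgis makes prostacyclin, and Ptgds makes prostaglandin D. In the other branch Alox5 (5-lipoxygenase), helped by the membrane protein Alox5ap (FLAP), makes leukotriene A, which Lta4h turns into the neutrophil attractant leukotriene B and Ltc4s couples to glutathione to give the cysteinyl leukotrienes. Blood leukocytes are the textbook source of leukotrienes, and vessel walls are the textbook source of prostacyclin.

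The 250 bases upstream of Ptgs2, Ptgs1 and Alox5 are shown because these genes were at or near their highest levels in neutrophils. Sequences are from RefSeq on GRCm38.p6, whose promoter table held 7 of the 9 genes; Ptgis and Alox5ap were not among them. They run 5′ to 3′ on the gene's strand up to the base before the start site, and capitals mark matches to the searched motifs. The windows are chr1:150099781-150100030 on the plus strand for Ptgs2, chr2:36230176-36230425 on the plus strand for Ptgs1, and chr6:116461179-116461428 on the minus strand for Alox5.
Ptgs2: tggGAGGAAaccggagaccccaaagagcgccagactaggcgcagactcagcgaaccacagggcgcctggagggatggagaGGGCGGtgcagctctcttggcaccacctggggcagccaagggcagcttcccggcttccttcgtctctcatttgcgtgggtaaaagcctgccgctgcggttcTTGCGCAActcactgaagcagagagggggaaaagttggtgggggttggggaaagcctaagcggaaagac
Ptgs1: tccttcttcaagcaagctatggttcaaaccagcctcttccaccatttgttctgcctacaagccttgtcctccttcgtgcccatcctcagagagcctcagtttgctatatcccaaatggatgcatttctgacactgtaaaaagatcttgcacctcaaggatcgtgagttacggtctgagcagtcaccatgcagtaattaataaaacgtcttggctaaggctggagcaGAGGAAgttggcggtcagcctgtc
Alox5: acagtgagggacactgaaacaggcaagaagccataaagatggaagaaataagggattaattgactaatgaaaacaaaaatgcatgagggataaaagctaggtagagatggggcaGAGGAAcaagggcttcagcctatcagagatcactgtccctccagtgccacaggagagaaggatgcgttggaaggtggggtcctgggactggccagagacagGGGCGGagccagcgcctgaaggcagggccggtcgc
The motifs were searched on both strands. They were the TATA box spelled TATAAA, the E-box spelled CACGTG, the CRE core spelled TGACGT, the C/EBP-like motif spelled TTGCNCAA, the AP-1 motif spelled TGANTCA, the GC box spelled GGGCGG, the ETS/PU.1 core spelled GAGGAA and the NF-kappaB consensus. The core GAGGAA lies 247 to 242 bases before the start of Ptgs2, 24 to 19 bases before that of Ptgs1 and 136 to 131 bases before that of Alox5, and 23.3% of 32851 promoters of the same length hold it. GGGCGG occurs in the Ptgs2 and Alox5 windows and in 32.7% of promoters. The palindromic match to TTGCNCAA, 69 to 62 bases before the start of Ptgs2, is the rarer one, held by 2.61% of promoters. These matches describe letters only.

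Ptgs2, the inducible cyclooxygenase (ENSMUSG00000032487, GRCm38 chr1:150100031-150108227), was foremost a neutrophil transcript. Neutrophils had 919.6 CPM in WT sham, 897 in KO sham, 839.9 in WT 24 h, 778 in KO 24 h, 643 in WT 72 h and 651 in KO 72 h. They held 56.1% to 83.5% of a library's Ptgs2 UMIs, and the level was highest at sham and lowest at 72 h in both genotypes. The KO level was 0.976 of the WT level at sham (interval 0.910 to 1.05), 0.927 at 24 h (0.891 to 0.964) and 1.01 at 72 h (0.917 to 1.12). Ptgs2 UMIs were found in 39.3% to 58.4% of neutrophils, or in 31.7% to 42.7% once each cell was thinned to 1000 UMIs. Thinned endothelial cells, which had 2218 to 4224 median UMIs before thinning against 1948 to 3162 in neutrophils, showed the transcript in 0.0639% to 0.778% of cells, and in 0.336% to 2.70% before thinning.

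Within neutrophils, Ptgs2 differed between clusters. In WT 24 h, the cluster led by Ccrl2, Siglecf and Tnf (cluster 3) had 1511 CPM, the cluster led by Cstdc4, Il1r2 and Cxcr2 (cluster 0) had 865 CPM, and the one led by Retnlg and S100a9 (cluster 9) had 323 CPM. The same order held in KO 24 h, at 1076, 813 and 415 CPM, but not in WT 72 h, where the 85 cells of cluster 9 had 756 CPM and cluster 3 had 628 CPM. Cluster 0 made up 83.5% of WT and 82.6% of KO neutrophils at 24 h, whereas cluster 3 made up 87.2% and 87.4% at 72 h, so the class held other cells at each time.

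In monocyte/macrophage cells Ptgs2 rose at 24 h after ligation and was low at 72 h. The values were 28.2 and 27.0 CPM in WT and KO sham, 126 and 67.1 CPM at 24 h, and 8.82 and 21.1 CPM at 72 h. Against sham, the 24 h level was 4.47-fold higher in WT (3.92 to 5.11) and 2.48-fold higher in KO (2.14 to 2.88). Cluster 2 (Ccl24, Arg1, Saa3), which held 56.8% to 66.2% of the class at sham and 24 h, gave 34.9, 33.7, 151 and 71.8 CPM in WT sham, KO sham, WT 24 h and KO 24 h, so the direction was the same within 1 cluster. The monocytic cluster 7 (Plac8, Ly6c2) also went from 29.0 to 87.3 CPM in WT. At 24 h the KO level was 0.531 of the WT level (0.489 to 0.578), which falls short of the 2-fold mark for the class. It passed that mark in cluster 2, at 0.475 (0.433 to 0.521). At 72 h the class level was 2.39-fold higher in KO (1.93 to 2.96), with the class made of different clusters in each library. Cluster 2 gave 2.45 (1.68 to 3.57), while cluster 6, the largest at that time, gave 0.920 (0.529 to 1.52). Cluster 17 (Ear2) held 352 KO and 55 WT cells, with 43 of the 157 KO UMIs at 101 CPM and 2 WT UMIs at 4.77 CPM. At 72 h, however, the neutrophil tracers S100a8 and S100a9 stood at 2.03% of their neutrophil level in KO macrophages and at 0.167% in WT. The same shares of neutrophil Ptgs2 would come to 13.2 CPM in KO and 1.07 CPM in WT. With only cells of at least 1500 UMIs the log2 ratio at 72 h was 0.98, below 2-fold.

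Fibroblasts had the steepest Ptgs2 change. They went from 3.90 CPM in WT sham and 6.90 in KO sham to 132 and 55.4 at 24 h, with 47.1 and 27.5 at 72 h. Neutrophil tracers were raised in KO 72 h fibroblasts, as given with Alox5ap below. The KO 72 h level of Ptgs2 is not corrected for them. The 24 h level was 34.0-fold the sham level in WT (20.6 to 60.1) and 8.04-fold in KO (5.39 to 12.3). Few cells carried it: in WT 24 h, 349 UMIs came from 30 of 199 fibroblasts, 108 of them from 1 barcode. In KO 24 h, 126 UMIs came from 35 of 172 cells, 47 of them from 1 barcode. Most of these UMIs, 309 in WT and 111 in KO, lay in cluster 25, which is led by the neutrophil-attracting chemokines Cxcl5 and Cxcl1 and by Ptx3, at 263 and 81.1 CPM. In the larger fibroblast cluster 8 (Clec3b, Dcn, Dpt) the level went from 3.87 to 27.4 CPM in WT, a 7.07-fold difference (3.70 to 14.4). The KO level in the class at 24 h was 0.419 of the WT level (0.339 to 0.515). Every fibroblast with Ptgs2 also had Ptgis at sham, 11 of 11 WT and 23 of 23 KO cells, but so did 82.5% and 84.3% of the other fibroblasts.

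**Figure D1:**
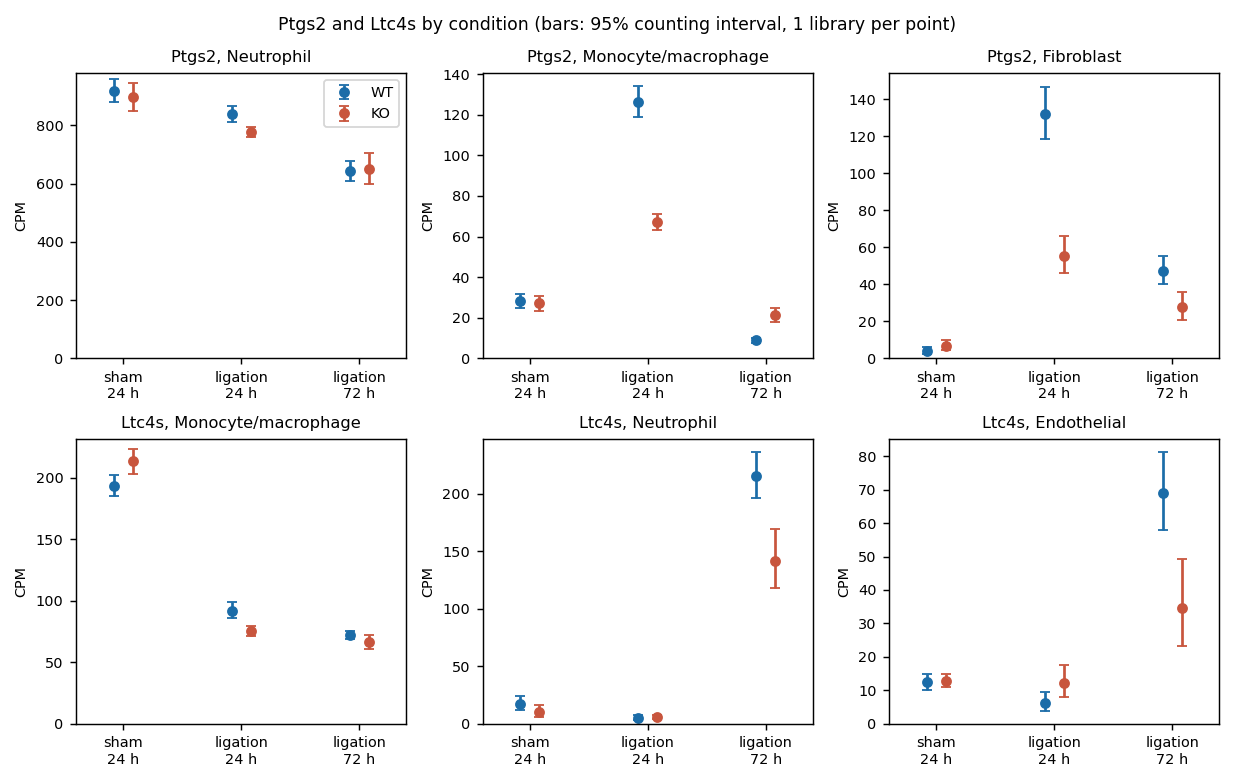
Levels of Ptgs2 (top) and Ltc4s (bottom) in CPM by condition for WT (blue) and KO (red), in the 3 classes named above each panel; each point is 1 library and bars are 95% counting intervals. Ptgs2 stands between 643 and 919.6 CPM in neutrophils and peaks at 24 h in monocyte/macrophage cells and fibroblasts, while Ltc4s is highest at sham in monocyte/macrophage cells and at 72 h in neutrophils and endothelial cells.

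Endothelial Ptgs2 was low, at 7.58 CPM in WT sham, 1.13 in KO sham, 9.29 in WT 24 h, 7.84 in KO 24 h, 1.97 in WT 72 h and 10.4 in KO 72 h. The sham difference, 67 UMIs against 14, put KO at 0.148 of WT (0.0771 to 0.267). Endocardial-like cells, the lining of the heart chambers, carried most of it, with 59 UMIs in 69 WT cells (124 CPM) and 11 UMIs in 63 KO cells (27.0 CPM), a ratio of 0.219 (0.104 to 0.420). In the same cells Ptgs1 did not show such a gap, with a KO to WT ratio of 1.04 (0.839 to 1.30), and neither did Ptgis, at 1.08 (0.840 to 1.40).

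Ptgs1, the constitutive cyclooxygenase (ENSMUSG00000047250, chr2:36230426-36252272), was spread over several classes. Platelet-like barcodes had the highest mean, 241 CPM over 4 libraries with a range of 135 to 340.4 and 7 to 30 UMIs in each. In platelets this enzyme is known to feed thromboxane synthesis. Neutrophils followed with 117 CPM in WT sham, 131 in KO sham, 46.9 in WT 24 h, 90.8 in KO 24 h, 181 in WT 72 h and 169 in KO 72 h. The ranges of these 2 classes overlap. Endothelial cells had 27.6 to 53.2 CPM and monocyte/macrophage cells 26.0 to 46.1 CPM, which do not separate either. Mesothelial-like cells, the outer lining of the heart, were few (135 in KO 72 h, at most 18 elsewhere) and had 353 CPM in KO 72 h.

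Neutrophil Ptgs1 thus moved opposite to neutrophil Ptgs2 between 24 h and 72 h. In WT it was 0.402 of the sham level at 24 h (0.332 to 0.485) and 3.86-fold higher at 72 h than at 24 h (3.25 to 4.60). At 24 h KO exceeded WT 1.94-fold (1.66 to 2.27), just under the 2-fold mark, and within cluster 0 the values were 100.2 and 48.5 CPM, 2.06-fold apart (1.75 to 2.44). At sham and 72 h the KO to WT ratios were 1.12 (0.926 to 1.36) and 0.935 (0.768 to 1.13). Summed platelet markers in neutrophils were 101 (WT) and 75.5 (KO) CPM at sham, 216 (WT) and 170 (KO) at 24 h and 165 in both at 72 h, so they were higher in the library where Ptgs1 was lowest. Of neutrophils with a Ptgs1 UMI, 37.8% (WT 72 h) to 62.1% (KO sham) also had Ptgs2, against 44.9% and 51.2% of the rest in those libraries, so neither order held throughout.

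Endothelial Ptgs1 and Ptgis were highest in the same small subsets. With the 6 libraries pooled, Ptgs1 was at 383 CPM (350.2 to 418) in 192 endocardial-like cells, of which 82.8% had a UMI. It was at 28.4 CPM in the large cluster led by Aqp1, 6.12 in arterial-like cells, 10.1 in the Apln-led cluster and 2.95 (0.804 to 7.55) in 147 lymphatic-like cells, of which 1.36% had a UMI. Ptgis, the prostacyclin synthase (ENSMUSG00000017969, chr2:167191805-167240604), was at 288 CPM in endocardial-like cells and at 1.04, 1.09, 0.791 and 2.21 CPM in those other subsets. A pair of small unnamed groups led by Vwf and Hamp (95 cells) and by Igfbp5 and Cytl1 (32 cells) also held both, with 124 and 348 CPM of Ptgs1 and 173 and 362 CPM of Ptgis. In WT sham, 28.6% of endothelial cells with a Ptgs1 UMI had Ptgis, against 0.596% of the rest, and in KO sham the shares were 15.4% and 0.892%. Lta4h, shown for contrast, ranged only from 41.4 to 63.5 CPM over the same subsets.

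**Figure D2:**
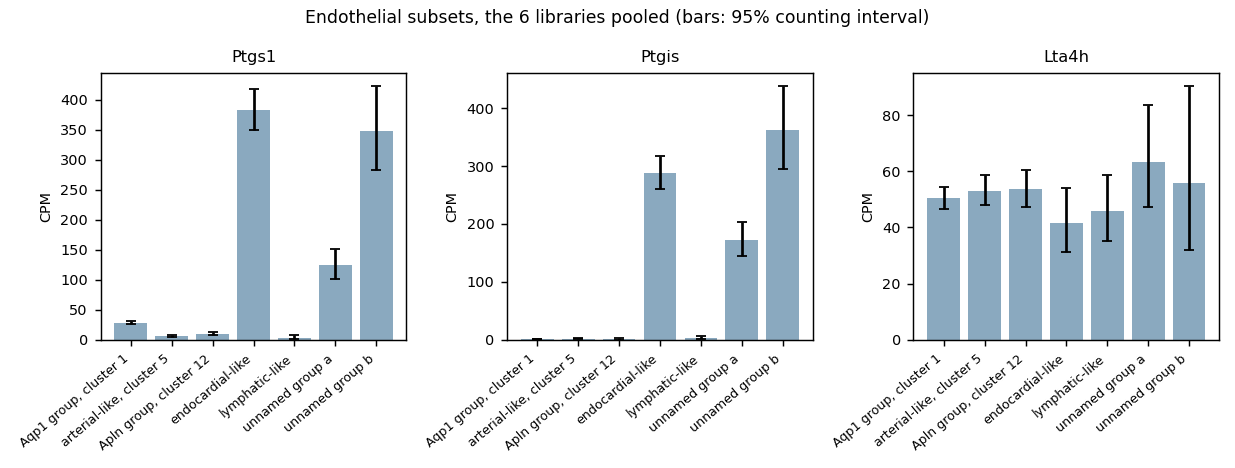
Levels of Ptgs1, Ptgis and Lta4h in CPM in 7 endothelial subsets with the 6 libraries pooled; bars carry 95% counting intervals and start at 0. Ptgs1 and Ptgis stand out in the endocardial-like cells (383 and 288 CPM) and the unnamed groups a (Vwf, Hamp) and b (Igfbp5, Cytl1), while Lta4h is even across the subsets.

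Over all classes, Ptgis was a fibroblast transcript. Fibroblasts had 374 CPM in WT sham, 462 in KO sham, 445 in WT 24 h, 389.8 in KO 24 h, 349 in WT 72 h and 303 in KO 72 h. No other named class with enough cells in most libraries came near this: smooth muscle had 45.4 to 159 CPM and endothelial cells 14.8 to 35.9 CPM. Mesothelial-like cells were above it, with 1144 CPM in the 135 cells of KO 72 h and 925 in the 18 cells of WT 72 h. The KO to WT ratio in fibroblasts was 1.24 at sham (1.16 to 1.32), 0.877 at 24 h (0.803 to 0.958) and 0.868 at 72 h (0.785 to 0.960), all within 2-fold. Smooth muscle, which is not one of the main classes, had 159 CPM in KO sham (218 UMIs) and 66.1 CPM in WT sham (74 UMIs). That ratio of 2.41 (1.84 to 3.18) was past 2-fold, while the smooth muscle ratio at 24 h was 1.26 (0.786 to 2.03). The fibroblasts of 72 h were mainly cluster 11 (Cthrc1, Col1a1), with 53.7% in WT and 87.6% in KO, and those of sham and 24 h mainly cluster 8.

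A smaller pool of Ptgis lay in monocyte/macrophage cells, at 12.9 and 18.5 CPM in sham, 11.9 (WT) and 5.81 (KO) at 24 h, and 1.28 and 3.90 at 72 h. The fibroblast tracers Col1a2 and Dcn were there at 0.0228% to 0.538% of their fibroblast level, and the measured Ptgis was 2.39 to 63.8 times what that share would give. The KO level was 0.490 of WT at 24 h (0.368 to 0.652) and 3.04-fold higher at 72 h (1.76 to 5.23). The 24 h direction was the same within cluster 2, at 0.485 (0.363 to 0.646), but the 72 h direction was not the same in every cluster. In cluster 2 KO was at 4.30 CPM (8 UMIs) and WT at 6.04 CPM (27 UMIs), and in cluster 6 KO was at 5.28 CPM (18 UMIs) and WT at 0.136 CPM (2 UMIs). The 24 h difference fell short of 2-fold without doublet removal, at a log2 ratio of -0.67. KO 72 h is the library with the ratio of 2.39 to the tracer level.

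Ptges, the inducible prostaglandin E synthase (ENSMUSG00000050737, chr2:30889471-30929863), was sparse and, among classes with enough cells in most libraries, highest in fibroblasts. Its fibroblast level was 10.5 CPM in WT sham, 16.7 in KO sham, 21.6 in WT 24 h, 11 in KO 24 h, 14.1 in WT 72 h and 11.4 in KO 72 h. The 2.06-fold difference between WT 24 h and WT sham (1.36 to 3.14) rests on 57 UMIs, 26 of them in 1 barcode. Without the barcode with most Ptges UMIs in each library, the log2 ratio was 0.27 and no longer past 2-fold. Monocyte/macrophage cells had 7.35 CPM in WT sham, where 1 barcode gave 30 of 75 UMIs, and 0.771 to 4.88 CPM in the other libraries. Neutrophils, rich in Ptgs2, had at most 2.004 CPM of Ptges. The gene overlaps Gm13400 on the same strand, so that reads of the pair may not be separable.

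Ptgds, the lipocalin-type prostaglandin D synthase (ENSMUSG00000015090, chr2:25466709-25470046), was near 0 outside cardiomyocyte-like barcodes, a remnant of cells that the preparation was meant to remove. These had 434 CPM in KO sham, 345 in KO 24 h, 410.4 in WT 72 h and 173 in KO 72 h. Among fibroblasts, KO sham had 70 UMIs in 8 cells, 50 of them in 1 barcode, against 3 UMIs in WT sham. The resulting ratio of 21.3 (7.002 to 106) therefore describes very few cells.

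Alox5, the 5-lipoxygenase that starts leukotriene synthesis (ENSMUSG00000025701, chr6:116410077-116461178), was highest in neutrophils, with a steady level in the class as a whole. The values were 135 CPM in WT sham, 136 in KO sham, 114 in WT 24 h, 151 in KO 24 h, 148 in WT 72 h and 134 in KO 72 h. Genotype ratios were 1.01 at sham (0.840 to 1.21), 1.33 at 24 h (1.20 to 1.47) and 0.907 at 72 h (0.727 to 1.12). Neutrophil cluster 3 was less steady, with 141 (WT) and 151 (KO) CPM at sham and 154 and 139 CPM at 72 h. At 24 h it had 54.4 CPM in WT, on 12 UMIs, and 88.0 CPM in KO. Cluster 0, the largest at 24 h, then had 122 and 161 CPM. Monocyte/macrophage cells were lower and fell with time, from 29.9 and 35.4 CPM at sham to 18.4 and 14.6 at 24 h and 6.94 and 8.47 at 72 h. Within them, Alox5 was concentrated in resident macrophages (cluster 14, led by Mgl2, Lyve1 and Cbr2), with 141, 119.9, 95.05 and 96.0 CPM in WT sham, KO sham, WT 24 h and KO 24 h and 29.5 CPM in WT 72 h. Cluster 14 held 194 of 989 WT cells of the class at sham, 50 of 652 at 24 h and 36 of 1752 at 72 h. In KO it held 196 of 767 at sham and 74 of 1408 at 24 h. The mix of the class thus changed along with its level. Cluster 2 of the same class had 11.8 to 19.6 CPM in all 6 libraries. Dendritic cells had 2.91 to 36.8 CPM, and endothelial cells at most 1.31 CPM.

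Alox5ap, the protein that presents arachidonate to 5-lipoxygenase (ENSMUSG00000060063, chr5:149264767-149288153), was high in neutrophils, platelets, dendritic cells and monocyte/macrophage cells. Lymphocytes were low, with a mean of 34.4 CPM in T/NK cells and 26.7 CPM in B cells. Neutrophils had 1908, 1869, 1545, 2128, 1415 and 1342 CPM in WT sham, KO sham, WT 24 h, KO 24 h, WT 72 h and KO 72 h. Monocyte/macrophage cells stayed between 872 and 1045 CPM, dendritic cells between 888 and 984 CPM, and platelet-like barcodes between 1048 and 1377 CPM, so the first 2 overlap. Platelets lay above both, and their highest library exceeded the neutrophils of KO 72 h. In neutrophils KO was 1.38-fold above WT at 24 h (1.34 to 1.42) and stood at 0.980 of it at sham (0.934 to 1.03) and 0.949 at 72 h (0.886 to 1.02). Of neutrophils with an Alox5 UMI, 87.6% to 97.5% also had Alox5ap, but so did 79.1% to 94.1% of the others.

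Fibroblast Alox5ap differed between libraries, at 4.63 and 3.78 CPM at sham, 13.6 (WT) and 29.5 (KO) at 24 h, and 29.4 (WT) and 166 (KO) at 72 h. KO was 5.66-fold above WT at 72 h (4.49 to 7.18). Without doublet removal the log2 ratio of 24 h over sham in WT turned from 1.56 to -0.65. Markers of other cells moved with it: all 12 neutrophil and all 15 monocyte/macrophage markers were detected in KO 72 h fibroblasts, with summed levels of 1923 and 4233 CPM against 167 and 1231 CPM in WT 72 h. Macrophage tracers (C1qa, C1qb, C1qc) stood at 10.7% of their macrophage level there, and that share of macrophage Alox5ap is 101 CPM, so the measured level was 1.65 times it. Neutrophil tracers stood at 2.80%, which is 37.6 CPM of neutrophil Alox5ap. In WT 72 h the share was 0.166% and the measured level 18.6 times it. KO 72 h fibroblasts also had a median of 1043.5 UMIs against 10358 in WT. The part of these in the difference was not tested beyond the tracer levels.

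Ltc4s, leukotriene C synthase (ENSMUSG00000020377, chr11:50236461-50238616), had its highest level per UMI in monocyte/macrophage cells at sham and in neutrophils at 72 h. At sham it was a macrophage transcript, with 193 CPM (WT) and 213 CPM (KO) among monocyte/macrophage cells, which held 87.3% and 88.6% of the library's Ltc4s UMIs. At 72 h these cells still held more of the UMIs than neutrophils did, 62.0% against 16.7% in WT and 40.7% against 10.3% in KO. The level was 92.1 and 75.1 CPM at 24 h and 72.0 and 66.2 CPM at 72 h. Against sham, the 24 h level was 0.476 in WT (0.438 to 0.518) and 0.352 in KO (0.327 to 0.378). The WT log2 ratio of -1.07 became -0.96 at a lower clustering resolution, after centring on the median gene or with the MHC class II cluster included, just short of 2-fold. Resident macrophages of cluster 14 had 336 and 299 CPM at sham, 156 and 183 at 24 h, and 156 in WT at 72 h. Monocytic cluster 7 had 0.886 to 22.5 CPM over the 6 libraries. Cluster 2 had 216 (WT) and 235 (KO) CPM at sham, 115 and 92.6 at 24 h, and 249 and 119 at 72 h. Its 72 h level was thus above the sham level in WT but below it in KO. At 72 h cluster 6 (Ccl8, Fcrls), with 32.8 and 44.0 CPM, formed the larger share of the class.

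In neutrophils Ltc4s was low until 72 h. The levels were 17.3 and 10.0 CPM at sham, 4.85 and 5.69 CPM at 24 h, and 216 (WT) and 142 (KO) CPM at 72 h. From 24 h to 72 h this was a 44.4-fold difference in WT (28.7 to 72.5) and a 24.9-fold difference in KO (18.0 to 34.9). In cluster 3 alone, present at each time, the levels were 30.3, 18.4, 13.6 and 34.8 CPM in WT sham, KO sham, WT 24 h and KO 24 h, then 240.1 in WT 72 h and 167 in KO 72 h. Within that cluster the 72 h to 24 h ratio was 17.6 in WT (6.00 to 85.9), resting on 3 UMIs at 24 h, and 4.79 in KO (2.87 to 8.48). The few cluster 0 cells of WT 72 h, 39 in number, had 179 CPM against 4.66 CPM at 24 h. Cluster 9 (Retnlg, S100a9) stayed low at 72 h, with 1 UMI in 85 WT cells, or 5.11 CPM (0.129 to 28.5). Its 45 KO cells had 0 UMIs, with an upper limit of 36.2 CPM. In the whole class KO was 0.658 of WT at 72 h (0.536 to 0.804).

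The neutrophil signal at 72 h was spread over many cells, with 454 UMIs in 219 of 970 WT neutrophils and 125 UMIs in 83 of 461 KO neutrophils, and at most 7 in 1 barcode. After thinning to 1000 UMIs, 14.7% and 11.1% of neutrophils showed it, against 0.218% and 1.29% of fibroblasts, whose median depth was 10358 and 1043.5 UMIs (neutrophils 2141 and 1948). Macrophage tracers in these neutrophils would account for 0.400 CPM in WT and 1.99 CPM in KO. Mast cells and basophils are textbook sources of cysteinyl leukotrienes and eosinophils another. Of 6 basophil markers none had a UMI in WT 72 h neutrophils, while 5 had one in KO 72 h, summing to 31.8 CPM, and mast cell markers summed to 0.949 and 12.5 CPM. The eosinophil genes Epx, Prg2 and Prg3 had no UMI in any neutrophil cluster. Siglecf, which leads cluster 3, stood there at 148 and 105 CPM at sham, 31.8 and 45.0 at 24 h and 313 and 293 at 72 h.

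Endothelial Ltc4s was also highest at 72 h, with 12.3 and 12.8 CPM at sham, 6.19 and 12.2 at 24 h and 69.0 (WT) and 34.6 (KO) at 72 h. From 24 h to 72 h that was 11.1-fold in WT (6.94 to 18.8) and 2.84-fold in KO (1.64 to 4.92). The mix of endothelial cells changed with it, the Apln-led cluster 12 being the largest at 72 h and the Aqp1-led cluster 1 before. Within cluster 12 WT went from 9.60 to 54.7 CPM, 5.70-fold (2.83 to 13.02). In KO that cluster had 20.5 CPM (10.9 to 35.0) on 13 UMIs at 24 h and 37.1 CPM (20.8 to 61.3) on 15 UMIs at 72 h, so the intervals overlap. Lymphatic-like cells of WT 72 h, 17 in number, had 176 CPM (125 to 242). In KO 72 h, Ltc4s also stood at 59.0 CPM in pericytes and 53.7 CPM in cardiomyocyte-like barcodes, on 13 UMIs each. Neither class had an Ltc4s UMI in KO 24 h. What RNA from other cells adds to the endothelial level of KO 72 h was not tested.

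Lta4h, the hydrolase that makes leukotriene B (ENSMUSG00000015889, chr10:93453411-93484875), was the evenly spread member. Dendritic cells averaged 62.6 CPM, T/NK cells 53.7, endothelial cells 52.7 and fibroblasts 36.5 CPM, and the ranges of these neighbours overlap. Neutrophils were lower, with 10.7 CPM in WT sham, 18.7 in KO sham, 8.31 in WT 24 h, 10.97 in KO 24 h, 13.8 in WT 72 h and 32.9 in KO 72 h. The last value put KO 2.39-fold above WT at 72 h (1.38 to 4.14). It came from 29 UMIs in KO and 29 in WT, the KO class total being smaller.

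**Figure D3:**
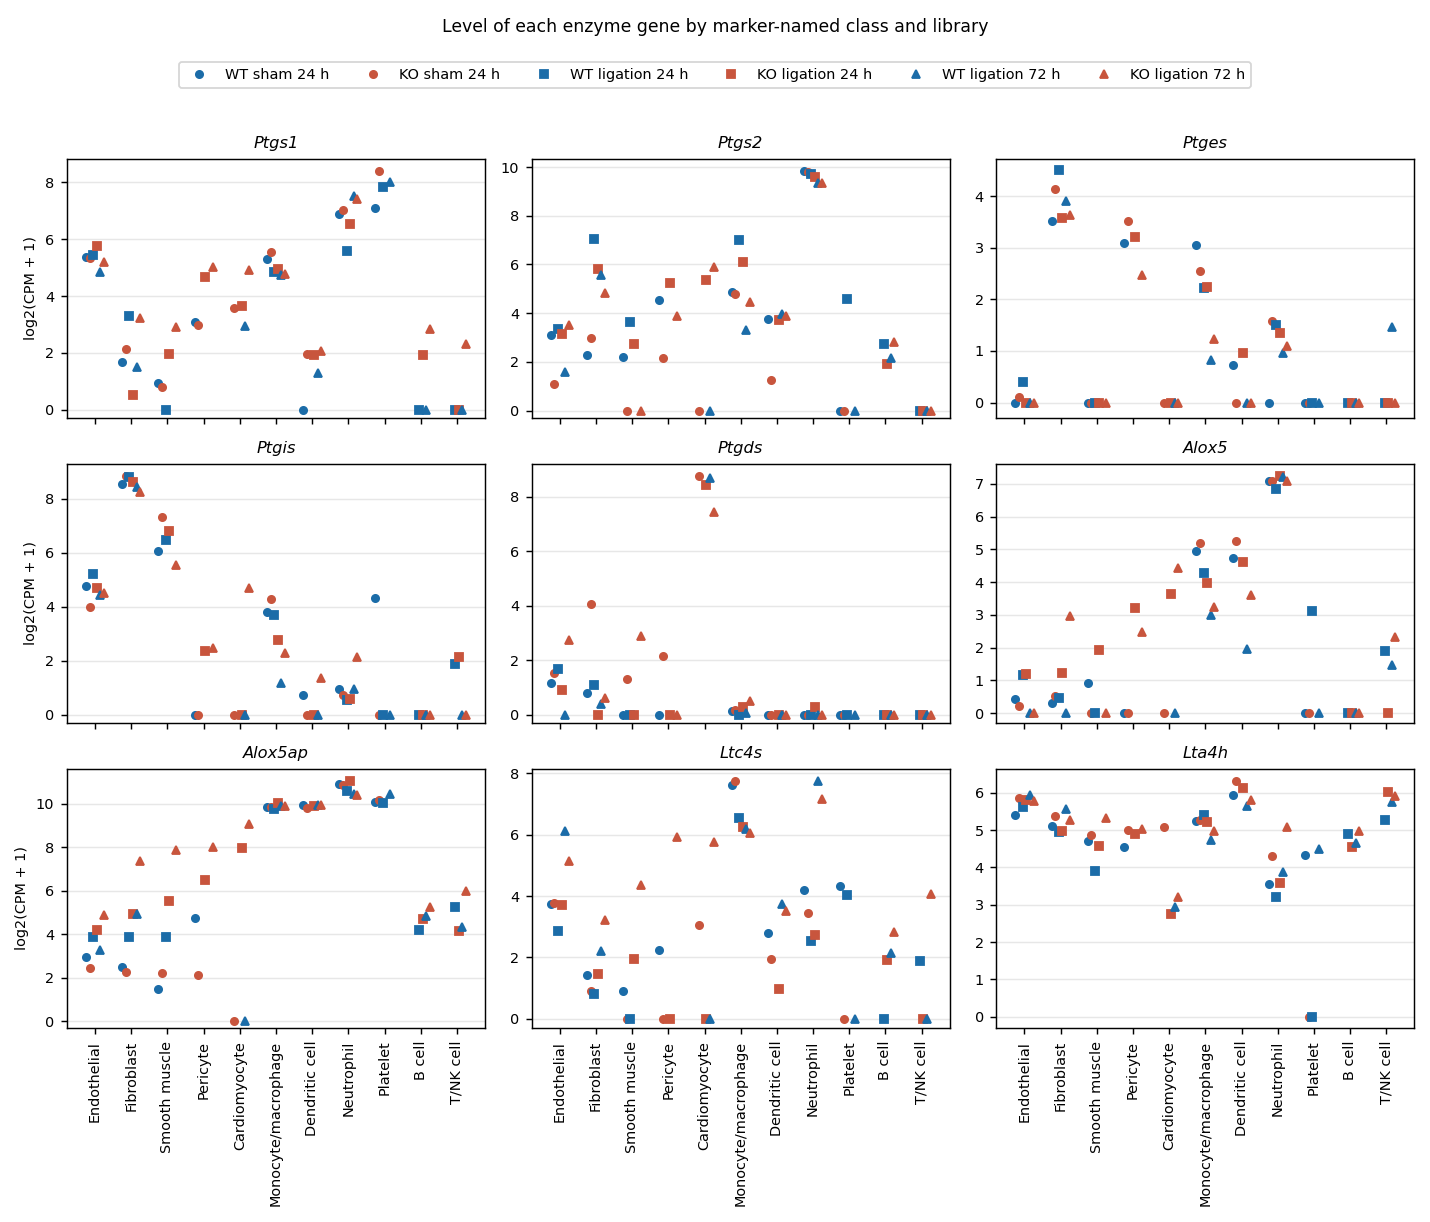
Level of each of the 9 genes, as log2(CPM + 1), in 11 classes; each symbol is 1 library with at least 50 cells of the class (blue WT, red KO; circles sham 24 h, squares ligation 24 h, triangles ligation 72 h). Among these classes, Ptgs2, Alox5 and Alox5ap are highest in neutrophils, Ptges and Ptgis in fibroblasts, Ptgds in cardiomyocyte-like barcodes and Ptgs1 in platelets, while Lta4h is spread over most classes. Mesothelial-like cells, which reach 50 cells only in KO 72 h, are not drawn.

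Counted over the 9 genes in the 4 main classes, 36 pairs in all, few differed by genotype. A pair counted as measured with at least 50 UMIs over both libraries, and as past the mark at 2-fold. Between KO and WT sham, 24 pairs were measured and 2 passed, endothelial Ptgs2 (lower) and fibroblast Ptgds (higher), where 1.52% of all measured gene and class pairs passed (0.831% higher, 0.691% lower). At 24 h after ligation 23 were measured and 3 passed (background 2.49%, with 0.902% higher and 1.59% lower): fibroblast Ptgs2 and monocyte/macrophage Ptgis were lower in KO and fibroblast Alox5ap was higher, 2.16-fold (1.42 to 3.34). At 72 h 22 were measured and 4 passed, all higher in KO (background 3.4%, with 2.21% higher and 1.19% lower): fibroblast Alox5ap, monocyte/macrophage Ptgs2 and Ptgis, and neutrophil Lta4h. The shares of measured pairs were 8.33%, 13% and 18.2%, above the background but made of 2, 3 and 4 pairs. Tracers of other classes were raised in the fibroblasts and monocyte/macrophage cells of KO 72 h, as given above.

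**Figure D4:**
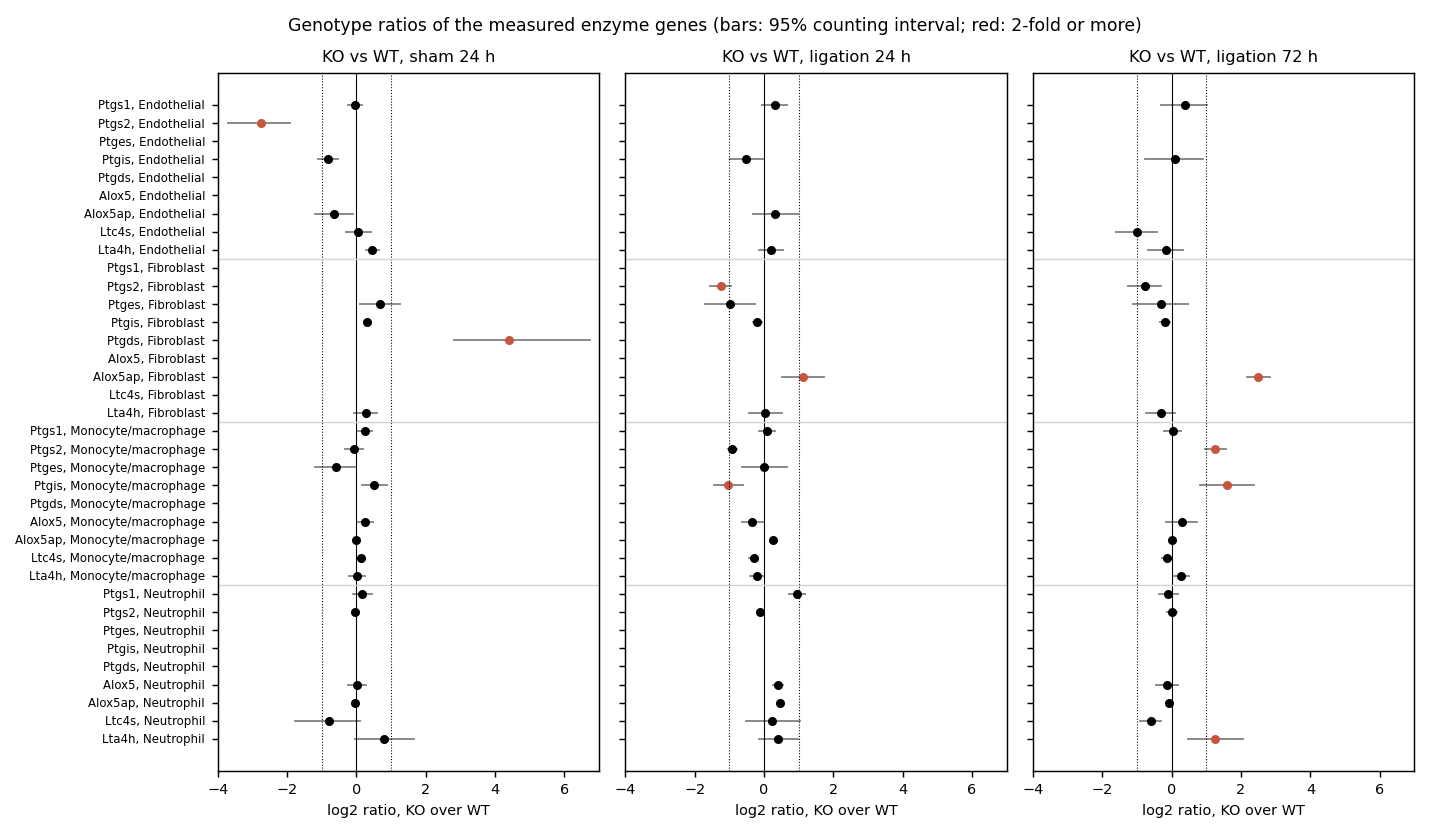
Log2 ratios of KO over WT for the measured genes in the 4 main classes at sham, 24 h and 72 h after ligation; points are ratios, bars 95% counting intervals, red points past 2-fold and dotted lines the 2-fold mark. Most points lie within the dotted lines, with 2, 3 and 4 red points in the 3 panels.

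Ligation and time moved more pairs. At 24 h against sham 25 pairs were measured in each genotype and 8 passed, a share of 32.0%, against backgrounds of 8.07% in WT (3.85% higher, 4.22% lower) and 8.62% in KO (3.14% higher, 5.48% lower). In WT 5 were higher and 3 lower, in KO 4 and 4. Those higher in both were Ptgs2 in fibroblasts and monocyte/macrophage cells and Alox5ap in fibroblasts and endothelial cells, and Ltc4s in monocyte/macrophage cells was lower in both. The Alox5ap calls did not hold under every setting. In WT endothelial cells the log2 ratio of 1.01 fell below 2-fold under 6 settings, at 0.25 to 0.98. In KO endothelial cells it went from 1.98 to 0.985 at clustering resolution 0.5, and in KO fibroblasts from 2.96 to 0.69 without doublet removal. From 24 h to 72 h, 8 of 23 pairs passed in WT (background 21.5%, with 11.8% higher and 9.63% lower) and 7 of 23 in KO (15.9%, with 10.9% higher and 4.98% lower), shares of 34.8% and 30.4%. In WT 4 were higher and 4 lower, in KO 4 and 3. These comparisons share the 24 h libraries with those before them.

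The rest of the pathway was described by a list of 46 other genes, 184 gene and class pairs. By genotype, 3 of 77 measured pairs passed at sham (1 higher, 2 lower), 3 of 70 at 24 h (all lower in KO) and 4 of 61 at 72 h (3 higher, 1 lower). These shares were 3.9%, 4.29% and 6.56%, where the backgrounds were 1.52%, 2.49% and 3.4%, but they rest on few pairs. At 24 h against sham, 4 were higher and 15 lower of 77 in WT, and 3 higher and 8 lower of 79 in KO. Those shares were 24.7% in WT and 13.9% in KO, above backgrounds of 8.07% and 8.62%. From 24 h to 72 h, 12 were higher and 18 lower of 69 in WT, and 8 higher and 9 lower of 68 in KO. The WT share was 43.5% against a background of 21.5%, and the KO share was also above its background of 15.9%. The higher pairs in KO 72 h fibroblasts were Pla2g7, a phospholipase that also cleaves platelet-activating factor (45.2 against 5.20 CPM), Cyp4f18, which breaks down leukotriene B (29.6 against 2.14 CPM), and Ltb4r1. Pla2g7 and Cyp4f18 were high in neutrophils at sham, at 411 and 401 CPM in WT, and the neutrophil and macrophage markers in those fibroblasts are given above.

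Monocyte/macrophage cells showed the largest swing in Hpgds, the hematopoietic prostaglandin D synthase. It was at 30.0 and 26.3 CPM in sham, 6.88 and 5.24 at 24 h and 89.3 and 54.9 at 72 h, a 12.98-fold difference from 24 h to 72 h in WT (10.0 to 17.2) and 10.5-fold in KO (8.33 to 13.3). Hpgd, which breaks prostaglandins down, went from 96.5 to 21.8 CPM in KO at 24 h, and Alox15, another lipoxygenase, from 28.3 to 10.1 CPM in WT. The mix of the class changed as well. Cluster 14, which has Hpgd among its leading genes, held 196 of 767 KO cells at sham and 74 of 1408 at 24 h. Cluster 6 held 49 of 1408 KO cells at 24 h and 773 of 1732 at 72 h. Levels of these genes within clusters are not given here. Among receptors, Ltb4r1, the high-affinity leukotriene B receptor, was at 214 CPM in WT neutrophils at sham, 577 at 24 h and 134 at 72 h. Cluster 0 made up 83.5% of these cells at 24 h and cluster 3 made up 87.2% at 72 h. In fibroblasts the prostacyclin receptor Ptgir went from 27.7 to 5.51 CPM in WT between 24 h and 72 h, and the prostaglandin F receptor Ptgfr from 28.0 to 6.60 CPM in KO between sham and 24 h.

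At sham, Ptges3, which encodes a co-chaperone also known as the cytosolic prostaglandin E synthase, was the most abundant of the other prostanoid synthases in all 4 main classes. Fibroblasts had most of it, at 332 CPM (WT) and 359 CPM (KO), and neutrophils least, at 105 and 98.9 CPM. The other main classes lay between, with 222 and 257 CPM for monocyte/macrophage cells, then 207 and 239 CPM for the endothelium. In other roles the highest gene varied. Fibroblasts had Pla2g4a, the phospholipase that frees arachidonate, at 54.0 and 72.1 CPM, and Dpep1, which trims leukotriene D, at 531 and 537 CPM. Neutrophils had Pla2g7 at 411 and 367 CPM, Cyp4f18 at 401 and 375 CPM, Ltb4r1 at 214 and 336 CPM, and Ggt5, which trims leukotriene C, at 101 and 104 CPM. Monocyte/macrophage cells had Pla2g7 at 191 and 213 CPM, Ltb4r1 at 157 and 171 CPM, and the prostaglandin E receptor Ptger4 at 23.9 and 27.8 CPM. Endothelial cells had Alox12 at 52.5 and 33.5 CPM and the thromboxane receptor Tbxa2r at 43.3 and 30.2 CPM.

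Likeness to other genes was measured as Pearson's r of log2(CPM + 1) over 55 class and library units, among 12953 genes, and is a description only, since units share libraries and depth. The closest genes were Rab11a for Ptgs1 (0.830), and Slc7a11, Cd33 and Plk3 for Ptgs2 (0.878, 0.874 and 0.859). Tnfaip6 came first for Ptges (0.863) and Kctd15 for Ptgis (0.875), followed by Lox and Slit3 (0.871 and 0.863). For Ptgds the first was the muscle gene Trdn (0.909). Dhrs9 came first for Alox5 (0.912), Fcer1g for Alox5ap (0.962), Naip2 for Ltc4s (0.745) and Tial1 for Lta4h (0.836). Ltc4s had the lowest best match of the 9 genes.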

How the data were processed

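Raw UMI counts per gene and cell were deposited by the authors for 6 libraries, with Cell Ranger 6.0.0 and the genome build mm10 named in the submitters' processing notes. The annotation and the cell filter they used are not given in the sources used here. Barcodes with at least 200 genes and at most 20% mitochondrial UMIs were kept, less those with the highest Scrublet scores at 0.8% per 1000 cells (1708 removed), since the automatic threshold marked only 0 to 52 per library. Leiden clustering used 2000 variable genes without the eicosanoid genes, 30 components, 20 neighbours and resolution 1, and gave 32 clusters. They were named from marker lists into 12 classes, and 8 clusters (4315 cells) stayed unnamed. Mixed endothelial cluster 19 was divided again at resolution 0.3, a step chosen after seeing the data.

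Counts were summed per library and class and divided by the class total (CPM). Ratios carry exact conditional 95% Poisson intervals, and a count of 0 was set to a floor of 3 counts. A ratio in the main classes needed 100 cells in both libraries, and a class level needed 50. Ratios and levels of clusters, of subsets and of classes given with their cell numbers include smaller groups. PCR and pooling error is not in these intervals. The level that free RNA could give was scaled from tracer genes of the source class. Ratios were tested on simulated data. Members, pathway, marker and tracer lists were chosen with earlier results of these data known. Other pathway genes were named if past 2-fold with at least 25 CPM in the higher library (at most 3 per comparison), or highest of their role at sham; the 3 most alike genes were ranked among those with at least 200 UMIs. Python 3.11.15, scanpy 1.11.5, leidenalg 0.10.2, scikit-learn 1.9.0, scipy 1.17.1, numpy 2.4.6, pandas 2.3.3 and matplotlib 3.10.9 were used.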

Additional observations from a re-analysis of the deposited data

How the results depend on the processing

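No paired analysis was possible because each group is 1 library, and no library could be left out of a group. The counts of pairs past 2-fold stayed within 1.5 times under other clustering resolutions, at most 10% mitochondrial UMIs, cells of at least 1500 UMIs, means over cells, centring on the median gene and counting the MHC class II cluster as monocyte/macrophage. Without doublet removal they became 5 (KO against WT, 24 h), 8 (KO against WT, 72 h) and 11 (72 h against 24 h, KO). With a minimum of 20 UMIs the KO against WT count at 72 h was 7. With no minimum the counts were 4, 9 and 12 for KO against WT at sham, 24 h and 72 h, 13 and 15 for 24 h against sham in WT and KO, and 17 and 15 for 72 h against 24 h. The backgrounds above come from the main setting with at least 50 UMIs, so no count here has a matching share beside it. Without the barcode with most UMIs of the gene, an alternative chosen after seeing the data, the sham genotype count was 1. One direction was reversed: fibroblast Alox5ap at 24 h against sham in WT, at a log2 ratio of 1.56, was -0.65 without doublet removal; the cause was not tested. Of 40 single ratios past 2-fold, 34 to 40 remained past it under each setting, of 37 that could be computed without the top barcode. Ptgis in monocyte/macrophage cells, KO against WT at 24 h, fell short at -0.67 without doublet removal and -0.90 after centring. Neutrophil Ptgs1, KO against WT at 24 h, passed at 1.01 without doublet removal. The KO 72 h library was the shallowest per cell, and neutrophil Lta4h at 72 h rests on 29 UMIs in each genotype.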
